A study of Mus musculus with 2 samples.

Results

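Crh neurons of the paraventricular hypothalamus (PVH) were taken from a single-nucleus RNA sequencing library of 17 mice aged 4 weeks. A nucleus counted as a Crh nucleus when it held at least 2 Crh UMIs (unique molecular identifiers, each one a captured RNA molecule). It also had to hold at most 1 UMI over Gad1, Gad2 and Slc32a1 together, and fewer than 10 UMIs each of Oxt and Avp. Barcodes with at least 500 genes and exactly 1 positive hashtag entered the search, with positive set at 105 UMIs for the tag Ctrl, 61 for KD and 37 for Q153R. Of 4904 such one-tag nuclei, 178 were Crh nuclei (3.63%, exact 95% interval 3.12 to 4.19). All mice carried Sim1-Cre, which drives recombination in neurons of the Sim1 lineage, and the reporter Sun1-GFP, which marks the nuclear envelope of those cells. GFP-positive nuclei were sorted. The reporter is recombined in every cell with a history of Sim1-Cre, so the sort is not limited to neurons of 1 peptide type. Of the mice, 7 had no further allele, 4 also carried Otpfl/+ (a floxed allele of the homeobox gene Otp) and 6 also carried OtpQ153R/+ (a missense allele). The tag names Ctrl and Q153R match genotypes. KD could be tied to Otpfl/+ only because no other genotype was left, so its nuclei are called those labelled KD. Each tag marked 1 pool of nuclei from several mice, all in 1 library.

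Corticotropin-releasing hormone, the peptide encoded by Crh, is released from PVH neurons at the median eminence and drives pituitary secretion of adrenocorticotropic hormone. The adrenal glucocorticoids that follow act back on these neurons through the glucocorticoid and mineralocorticoid receptors. Noradrenaline, angiotensin II and glutamate are among the inputs known to excite the neurons, and cAMP acting through the factor CREB is a known route to Crh transcription. Otp is a homeobox factor needed for several neuroendocrine cell types of the PVH, Crh neurons among them.

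With 1 pool per tag there were no replicate pools, so no difference was tested and no p-value is given. Levels are UMIs of a gene summed over nuclei per 1000000 summed UMIs (CPM), and every interval is an exact 95% interval. Intervals cover counting error only and treat the UMIs of 1 nucleus as independent, so they are narrower than the spread between mice would be. CPM is not divided by gene length, so levels were compared between nuclei and not between genes. The Crh nuclei held 854213 UMIs, with a median of 4312 per nucleus (946 to 14402), against a median of 5286 (565 to 29974) in the 4726 other one-tag nuclei. By pool the median Crh nucleus held 4433 UMIs in Ctrl, 5008 in KD and 3647 in Q153R. Female nuclei, taken as those with 3 or more UMIs of Xist and none from the Y chromosome, were 81.1% of the Crh nuclei in Ctrl, 95.6% in KD and 59.3% in Q153R. Nuclei called by Y-chromosome genes were 6.76%, 0% and 18.6%, and the rest had no call. So the pools also differed in sex, though a cut on Xist UMIs depends on depth as well, which differed by pool. Sex and genotype cannot be told apart where a result is not repeated in the Xist nuclei alone.

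The values that chose the nuclei are given as a description. The 178 nuclei held 588 Crh UMIs, which was 57.6% of the 1021 Crh UMIs of all one-tag nuclei. The median was 3 Crh UMIs and the highest 14. There were 86 nuclei with the minimum of 2 and 32 with 5 or more. A further 32 nuclei had at least 2 Crh UMIs and missed a limit, 23 of them through Gad1, Gad2 and Slc32a1, 4 through Oxt and 8 through Avp, with some missing more than 1. Other groups of nuclei show how often Crh UMIs occurred elsewhere. Of 176 GABAergic nuclei (at least 4 UMIs over the 3 GABA genes and no Sim1 UMI), 9.09% (5.29 to 14.3) held a Crh UMI, at a median of 6452 UMIs. Crh stood at 23.7 CPM (15.7 to 34.2) in them, and 5 of the 176 held at least 2 Crh UMIs, so their share was not taken as a measure of free RNA. Avp nuclei (at least 50 Avp UMIs) stood at 2.45 CPM and Trh nuclei (at least 3 Trh UMIs) at 6.29 CPM. After thinning of all nuclei to 2000 UMIs, the share with a Crh UMI was 79.9% (73.0 to 85.6) of Crh nuclei, 4.00% (1.62 to 8.07) of GABAergic nuclei and 0 of 127 Avp nuclei, which allows up to 2.36%. At the threshold, the 266 nuclei with 1 Crh UMI that met the other limits carried Sv2c at 576 CPM and Agtr1a at 167 CPM. The 86 nuclei with 2 Crh UMIs carried Sv2c at 1057 CPM and Agtr1a at 279 CPM.

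**Figure D1:**
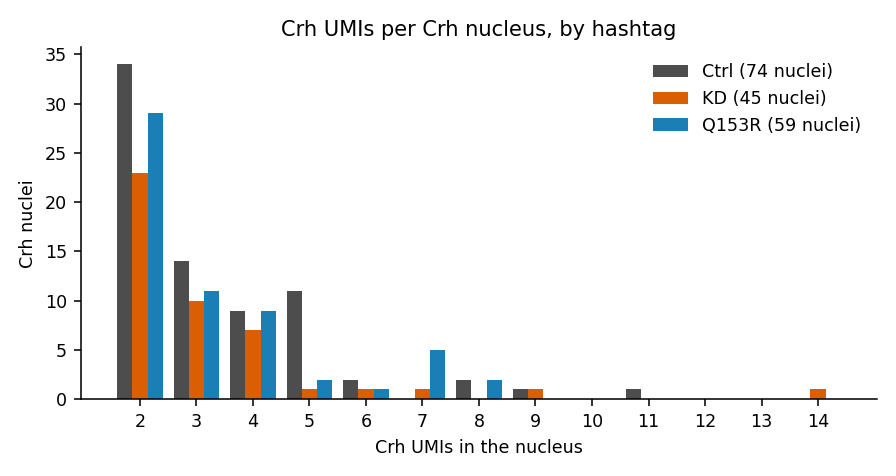
Number of Crh nuclei (y axis) by their count of Crh UMIs (x axis), with 1 bar per hashtag pool. Most nuclei in each pool sit at 2 to 4 UMIs, the single nucleus at 14 is labelled KD, and 11 of the 14 nuclei with 5 UMIs are labelled Ctrl.

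The marker genes other than Crh were higher in Crh nuclei than in the other one-tag nuclei. Sv2c, a synaptic vesicle glycoprotein, stood at 1184 CPM (1112 to 1259) against 165, a ratio of 7.19 (6.70 to 7.70). Hs3st2, a heparan sulfate sulfotransferase, stood at 307 against 50.4 CPM, a ratio of 6.08 (5.31 to 6.95). Adra1b, the alpha-1B adrenergic receptor through which noradrenaline acts, stood at 148 against 23.1 CPM, a ratio of 6.38 (5.22 to 7.74). Arnt2, the bHLH-PAS partner of Sim1, stood at 633 against 251 CPM, a ratio of 2.52 (2.30 to 2.75). Genes of the Sim1 lineage were close to the other nuclei of the sort, with ratios of 0.909 (0.815 to 1.01) for Sim1, 0.934 (0.708 to 1.21) for Otp and 1.11 (0.921 to 1.33) for Slc17a6, the vesicular glutamate transporter. The markers were chosen with earlier results of these data known, so these levels are a description and no check of the label. Sv2c and Hs3st2 each overlap 2 other annotated genes and Arnt2 overlaps 1, and their reads cannot be told apart without strand information.

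Markers of other cells were detected at low levels, and several defining ones were at 0. Of 5 GABAergic markers, Gad1, Gad2 and Slc32a1 were held down by the rule itself. The other two, Dlx1 and Dlx6os1, were at 0. The 6 astrocyte markers summed to 98.3 against 98.8 CPM, as high as in the other nuclei, with Slc4a4 at 64.4 CPM on 55 UMIs in 9 nuclei and Aqp4 at 0. Mbp, a myelin gene, stood at 33.9 CPM on 29 UMIs. Summed, the 5 oligodendrocyte markers stood at 52.7 against 162 CPM with Mobp at 0, and the 5 microglial markers at 39.8 against 50.9 CPM with C1qa and Tmem119 at 0. The 5 oligodendrocyte precursor markers summed to 19.9 against 43.4 CPM with Olig1 and Olig2 at 0. The 5 endothelial and mural markers summed to 12.9 against 8.17 CPM, higher in the Crh nuclei, with Cldn5 and Flt1 at 0. Of these, Pecam1 had 6 UMIs in 6 nuclei and Pdgfrb had 4 UMIs in 1 nucleus. The 4 ependymal and tanycyte markers summed to 8.19 against 13.4 CPM with Foxj1, Ccdc153 and Rax at 0. Several zeros say little, as Cldn5, Flt1, C1qa, Tmem119, Ccdc153 and Rax stood at 0.891 CPM or less in the other nuclei too. Between pools the astrocyte sum was 118 CPM in Ctrl, 150.0 in KD and 20.1 in Q153R. The oligodendrocyte sum was 38.3, 83.4 and 44.2 CPM and the endothelial and mural sum 5.47, 29.2 and 8.04 CPM. The part of these markers in the comparisons by pool was not tested.

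Most Crh nuclei shared a single transcriptional cluster. Clustering all one-tag nuclei, with every gene of the lists and markers used here left out, gave 22 clusters, and 151 of the 178 Crh nuclei (84.8%, 78.7 to 89.8) lay in 1 of them, a cluster of 740 nuclei. The other 27 were spread over 10 clusters, with at most 8 in any. The 27 nuclei were deeper, with a median of 7445 against 4071 UMIs, and carried less of the markers. Sv2c stood at 229 CPM in them against 1494 in the 151, a ratio of 0.153 (0.112 to 0.205), and Agtr1a at 47.7 against 447 CPM, a ratio of 0.107 (0.0506 to 0.199). The same ratios were 0.135 for Hs3st2 and 0.154 for Adra1b. Trh, the thyrotropin-releasing hormone gene, stood at 38.1 against 3.10 CPM on 8 and 2 UMIs. With the 151 nuclei alone the ratio to the other one-tag nuclei was 9.07 for Sv2c and 6.84 for Agtr1a, against 7.19 and 5.34 with all 178.

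The cluster also held many nuclei in which no Crh was captured. Of its 740 nuclei, 363 met the other limits with no Crh UMI and are called Crh-undetected neighbours. They carried Sv2c at 1269 CPM, Agtr1a at 425, Pcsk1 at 545 and Nr4a1 at 192 CPM. In the 151 Crh nuclei of the cluster these genes stood at 1.18, 1.05, 1.12 and 1.12 times those levels. The markers Hs3st2, Arnt2 and Adra1b stood at 353, 796 and 133 CPM in the neighbours and at 389, 760.4 and 186 CPM in the 151. At 2000 UMIs per nucleus, 28.9% (25.6 to 32.4) of the cluster's nuclei held a Crh UMI. By pool this share was 33.9% in Ctrl (84 of 248 nuclei), 25.7% (19.5 to 32.8) in KD and 26.5% (21.3 to 32.2) in Q153R, and the 3 intervals overlapped. A nucleus without Crh RNA and one whose Crh RNA was missed cannot be told apart at this depth.

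Some genes did differ between the 151 Crh nuclei of the cluster and the 363 neighbours. Nrg1, the growth factor neuregulin 1, stood at 216 against 705 CPM (ratio 0.306, 0.254 to 0.365). Hcrtr2, an orexin receptor, stood at 82.2 against 184 CPM (0.446, 0.326 to 0.601), and Adarb2, an RNA-binding deaminase relative, at 853 against 1878 CPM (0.454, 0.414 to 0.498). Higher in the Crh nuclei were Mcc at 275 against 134 CPM (2.05, 1.66 to 2.53) and the vasopressin gene Avp at 379 against 208 CPM (1.82, 1.53 to 2.16), within the limit set on Avp. Pde4b, a cAMP phosphodiesterase, stood at 1937 against 1087 CPM (1.78, 1.65 to 1.92), and the receptor tyrosine kinase gene Alk at 1696 against 955 CPM (1.78, 1.64 to 1.92).

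Against all other one-tag nuclei, 8904 genes had at least 10 UMIs expected in the Crh nuclei from their level over all one-tag nuclei. Of these, 372 (4.18%) were at least 2-fold higher in the Crh nuclei and 1328 (14.9%) at least 2-fold lower, and the median log2 ratio was -0.24. The lists of genes described next are read against these background shares.

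Genes induced by neuronal activity were the list with the highest median. Of 30, 19 passed the filter on expected UMIs, 14 of these were at least 2-fold higher and 1, the activin subunit gene Inhba, was at least 2-fold lower on 5 UMIs. The median log2 ratio was 1.94, and it was 1.99 with only other Sim1-expressing nuclei as the comparison. For the Crh nuclei of the shared cluster against their Crh-undetected neighbours it was 0.18. Promoters of some activity genes hold the cAMP response element, the site of CREB. The 4 stretches shown here are those in which a search of the RefSeq windows of the activity genes and the markers found its full form, TGACGTCA. Of the 5 markers 4 had a window, and the promoter of Crh itself was not searched. Each is 30 bases on the gene's strand, 5′ to 3′, from GRCm38.p6, with the element in capitals.
Btg2: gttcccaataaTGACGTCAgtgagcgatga
Pcsk1: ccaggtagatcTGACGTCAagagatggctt
Scg2: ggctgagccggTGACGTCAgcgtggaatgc
Hs3st2: acccgcgcggcTGACGTCAggcgactcctt
The stretches lie at chr1:134079303-134079332 on the minus strand, chr13:75089768-75089797 on the plus strand, chr1:79440076-79440105 on the minus strand and chr7:121392216-121392245 on the plus strand. The element begins 166, 78, 68 and 69 bases before the RefSeq start in that order. By GENCODE coordinates Scg2 starts at chr1:79440120 and Hs3st2 at chr7:121391859, so their stretches lie inside the annotated gene. TGACGTCA reads the same on both strands and was searched in the 250 bases before each start. Of the 30 activity genes 22 had a window, and 3 of the 22 genes (13.6%) held the full element in any window, against 478 of all 27025 genes (1.77%). Of these 3, Pcsk1 and Scg2 are also genes of peptide processing. Some genes have several windows. Counted per window, it was 3 of 33 (9.09%) against 508 of 32851 (1.55%). The short form of the element, TGACG or CGTCA, was in 15 of the 22 genes (68.2%) and 19.8% of all genes. Per window it was in 17 of 33 (51.5%) and 17.8% of all windows, and every full element also holds the short form. A match is a string of letters and not a measured binding site.

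Btg2, an early-response antiproliferative gene, stood at 207 CPM in Crh nuclei against 35.4 in the others, a ratio of 5.85 (4.96 to 6.88). Nr4a1, an orphan nuclear receptor induced within minutes of stimulation, stood at 181 against 35.9 CPM (5.05, 4.23 to 5.99). Sik1, a kinase that restrains CREB coactivators, stood at 58.5 against 10.9 CPM (5.36, 3.89 to 7.26). The AP-1 genes Junb, Fosl2, Jun and Fos had ratios of 4.94, 4.68, 4.67 and 3.52, and the neuron-specific factor Npas4 had 3.87 (3.12 to 4.76). Junb overlaps Prdx2 on the other strand. Fosb, Arc and Nptx2 missed the filter on expected UMIs and had ratios of 6.97, 7.06 and 8.15 on 38, 28 and 53 UMIs. Of the other genes that missed the filter, Egr2 and Dusp6 had 0 UMIs, Egr4 and Ier2 had 2 and 3, and Gadd45g had a ratio of 1.68 on 11. Among those that passed, a ratio of 2 was not reached by Crem (1.71), Rheb (1.57), Bdnf (0.879), Rasgrp1 (0.663) or Inhba.

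Counted per nucleus, the 30 activity genes summed to a median of 8 UMIs (1 to 18) among 2000 in the 143 Crh nuclei of the shared cluster that were deep enough. The 341 Crh-undetected neighbours had a median of 6 (0 to 26), 127 Avp nuclei 1 (0 to 5), 91 Oxt nuclei (at least 50 Oxt UMIs) 1 (0 to 4) and 179 Trh nuclei 2 (0 to 39). No Crh nucleus of the cluster was at 0, and the ranges of all 5 groups overlapped. The sum includes the peptide processing genes Pcsk1 and Scg2. They stood at 609.8 and 794 CPM in the 151 Crh nuclei of the cluster, against 139 and 51.4 CPM in Avp nuclei. Vgf, also included, stood at 205 CPM in all 178 Crh nuclei against 15.9 in Avp nuclei. The part of these genes in the gap between groups was not tested. The 26 deep enough Crh nuclei outside the cluster had a median of 3. By pool the median over all Crh nuclei was 7 in Ctrl (n = 73 nuclei), 6 in KD (n = 41) and 7 in Q153R (n = 55).

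**Figure D2:**
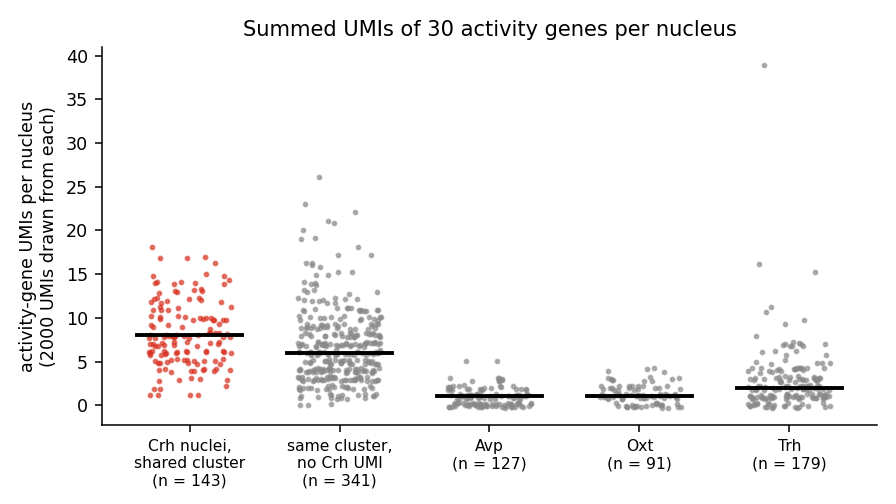
Summed UMIs of the 30 activity genes in each nucleus after thinning to 2000 UMIs (y axis) for 5 groups of nuclei (x axis, with the number of nuclei), with bars at the group median and points jittered. The medians are 8 and 6 in the 2 groups of the shared cluster and 1, 1 and 2 in Avp, Oxt and Trh nuclei. The 30 genes include Pcsk1, Scg2 and Vgf, which are also genes of peptide processing and granules.

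Some genes of peptide processing and dense-core granules were higher in Crh nuclei. Of 33, 32 passed the filter, 9 were at least 2-fold higher and 3 at least 2-fold lower, and the median log2 ratio was 0.04. Pcsk1, the proprotein convertase that begins the cleavage of prohormones, stood at 519 against 131 CPM (3.96, 3.58 to 4.37). Pam, which amidates the C terminus of peptides such as CRH, stood at 3231 against 1065 CPM (3.03, 2.92 to 3.15). Cpe, the carboxypeptidase that trims the cleaved peptides, had a ratio of 2.30 (2.13 to 2.48), while the second convertase, Pcsk2, had 1.29 (1.20 to 1.38). The granins and granin-like genes Vgf, Scg2 and Scg3 had 3.67, 3.02 and 2.18, while Chga, Chgb and Scg5 had 0.669, 1.17 and 1.01. Among vesicle proteins, Sv2c was the highest at 7.19, its paralog Sv2b had 0.182 (0.0783 to 0.359) on 8 UMIs, Sv2a had 0.790 and the calcium sensor Syt7 had 0.334 (0.206 to 0.511). Pcsk1, Scg2 and Vgf are also in the activity list.

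Receptors for hormones and inputs split in both directions. Of 84, 41 passed the filter, 8 were at least 2-fold higher and 14 at least 2-fold lower, with a median log2 ratio of -0.48. Agtr1a, the type 1a angiotensin II receptor, stood at 349 CPM (298 UMIs) against 65.4 (5.34, 4.70 to 6.04) and was detected in 46.7% of Crh nuclei at 2000 UMIs. Gpr101, an orphan receptor coupled to cAMP, had a ratio of 3.46 (2.82 to 4.22). Sstr2, an inhibitory somatostatin receptor, had 3.31 (2.35 to 4.56), and Calcr, the calcitonin receptor, 3.05 (2.68 to 3.47). Ntrk2, the receptor of brain-derived neurotrophic factor, stood at 2266 against 779.7 CPM (2.91, 2.77 to 3.05), and Galr1 and Igf1r had 2.35 and 2.27. The adrenergic receptor with the high level was Adra1b and not Adra1a, which had a ratio of 0.152 (0.0492 to 0.355) on 5 UMIs. Also low were the muscarinic receptor Chrm3 at 0.139 (0.0878 to 0.208) and the serotonin receptor Htr4 at 0.236.

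**Figure D3:**
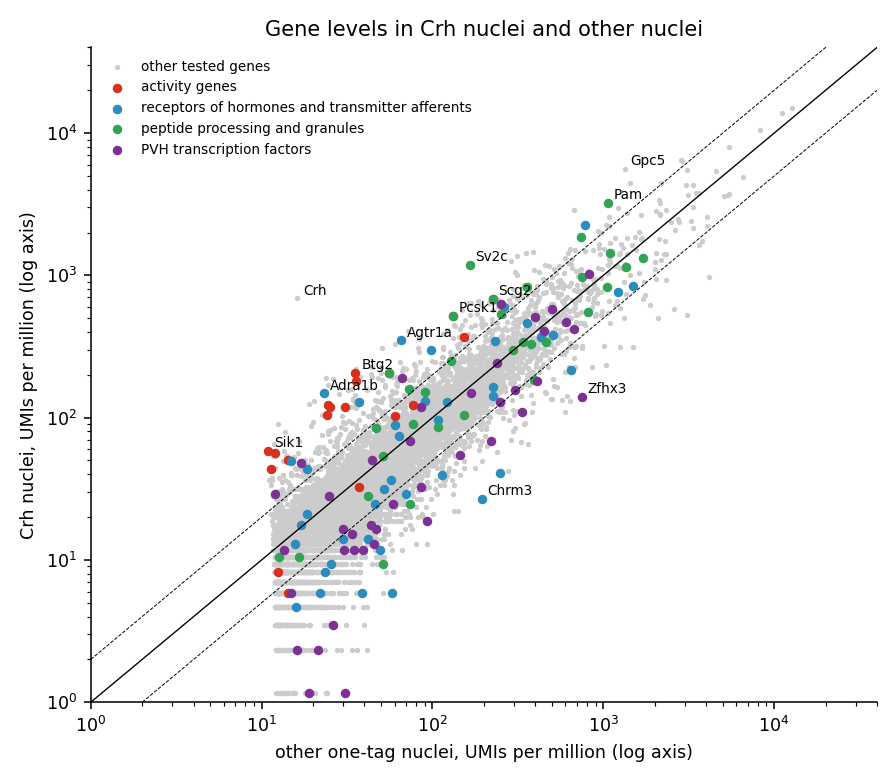
Level of each gene that passed the filter on expected UMIs in Crh nuclei (y axis) and in the other one-tag nuclei (x axis), both in CPM on log axes, with 4 gene lists in colour, a solid line at equality and dashed lines at 2-fold. Genes at 0 in the Crh nuclei are not drawn, a gene in 2 lists takes 1 colour, and activity genes lie mostly above the upper dashed line while many PVH transcription factors lie below the lower one.

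Most genes of glucocorticoid sensing were above the level of other nuclei. Of 19, 15 passed the filter, 13 had a ratio above 1, 4 were at least 2-fold higher, none at least 2-fold lower, and the median log2 ratio was 0.39. Nr3c1, the glucocorticoid receptor, stood at 183 against 122 CPM, and at 2000 UMIs per nucleus its ratio was 1.09 (0.813 to 1.44), an interval that includes equality. Nr3c2, the mineralocorticoid receptor, stood at 816 against 337 CPM (2.42, 2.24 to 2.62). The glucocorticoid-responsive genes Zbtb16, Per1 and Klf9 had ratios of 3.35, 2.73 (1.91 to 3.79) and 2.39 (1.91 to 2.96). Fkbp5 and Sgk1, which glucocorticoids also induce, had 1.29 (1.01 to 1.62) and 0.616 (0.427 to 0.859). Within the shared cluster Nr3c1 and Fkbp5 were lower in the Crh nuclei than in their Crh-undetected neighbours, with ratios of 0.727 (0.590 to 0.890) and 0.612 (0.450 to 0.820). The list's median log2 ratio against those neighbours was -0.26.

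Of 36 genes of cAMP signalling, 35 passed the filter, with 4 at least 2-fold higher and 4 at least 2-fold lower and a median log2 ratio of 0.18. The higher genes were Sik1, the phosphodiesterase gene Pde10a (3.13, 3.03 to 3.24) and the kinases Sik3 (2.33, 2.20 to 2.47) and Sik2 (2.18, 1.94 to 2.44), all 3 members of the salt-inducible kinase family among them. Creb1 itself had 1.18 (0.948 to 1.45), and the phosphodiesterase gene Pde7b had 0.250 (0.177 to 0.344). Of 55 ion channel genes, 54 passed, 6 were at least 2-fold higher and 14 at least 2-fold lower, with a median log2 ratio of -0.34. Among the higher ones were Kcnd3 (3.25, 3.03 to 3.49) and Kcnd2 (2.21), which carry A-type potassium current, Kcnh1 (2.77), the M-current gene Kcnq3 (2.23) and the calcium channel subunit gene Cacna2d1 (2.05). Kcnq5, the relative of Kcnq3, had 0.204 (0.168 to 0.246), and the sodium channel gene Scn1a had 0.301 (0.226 to 0.394).

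Of 41 genes of glutamate and GABA transmission, 33 passed with the genes of the rule set aside, 2 were at least 2-fold higher and 5 at least 2-fold lower, with a median log2 ratio of -0.16. Gabrq, a GABA receptor subunit of extrasynaptic receptors, had 2.82 (2.02 to 3.86) and the kainate receptor subunit gene Grik4 had 2.10 (1.87 to 2.37), while Gabrg3 had 0.249 (0.220 to 0.281). Of 27 genes of heparan sulfate, 22 passed, 3 were at least 2-fold higher and 5 at least 2-fold lower, with a median log2 ratio of -0.53. Within the 3-O-sulfotransferase family, Hs3st2 and Hs3st1 had 6.08 and 2.30, and Hs3st4 and Hs3st5 had 0.152 (0.106 to 0.210) and 0.460 (0.361 to 0.578). In the Crh nuclei of the shared cluster alone Hs3st4 was at 0.0614 (0.0306 to 0.110). Gpc5, a glypican that carries heparan sulfate at the cell surface, stood at 5627 against 1331 CPM (4.23, 4.10 to 4.36).

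PVH transcription factors were the list with the lowest median. Of 63, 41 passed, 4 were at least 2-fold higher and 21 at least 2-fold lower, with a median log2 ratio of -1.16. Against other Sim1-expressing nuclei alone the median was -0.57. The 4 higher were Bcl11a (2.85, 2.41 to 3.35), Etv5 (2.80, 1.99 to 3.86), Arnt2 (2.52) and Prdm8 (2.46, 1.57 to 3.70). Among the 21 lower were the homeobox gene Meis2 (0.110), the zinc finger genes Zic1 (0.134) and Zic4 (0.0621), the nuclear factor gene Nfib (0.201) and the Wnt effector gene Tcf7l2 (0.388). Against the Crh-undetected neighbours the list's median log2 ratio was 0.02. Zfhx3, a large zinc finger homeobox factor, stood at 140.5 against 746 CPM (0.188, 0.156 to 0.225). Nearly all of its UMIs came from the 27 Crh nuclei outside the shared cluster: the 151 inside had a ratio of 0.0166 (0.00718 to 0.0328), and the Crh-undetected neighbours carried 4.94 CPM. Bcl11a and Zfhx3 overlap other annotated genes.

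Other peptide genes were low. Of 36, 9 passed the filter with Oxt and Avp, which the rule limited, set aside. None was at least 2-fold higher and 4 were at least 2-fold lower, namely Trh (0.203), Tac1 (0.251), Cartpt (0.330) and Sst. Penk, the enkephalin precursor, stood at 57.4 against 45.0 CPM (1.27, 0.938 to 1.70), and Sst, the somatostatin gene, at 74.9 against 162 CPM (0.462, 0.355 to 0.591). Cck, Nts, Vip and Npy were at 0 in all 178 nuclei. In the CRH family, Ucn, Ucn3 and the receptor gene Crhr2 were at 0, Ucn2 and Crhr1 had 1 UMI each and the binding protein gene Crhbp had 7.

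Outside the lists, the highest ratios were taken among genes with at least 200 UMIs in the Crh nuclei, a filter that favours genes high in them. They are a description. At the top were Zfp516 (404 against 72.0 CPM, 5.61, 4.99 to 6.29) and Fam46a (328 against 60.1 CPM, 5.45, 4.78 to 6.19). They were followed by the long noncoding Mir670hg (4.41), Alk (4.41, 4.14 to 4.69), the inositol transporter gene Slc2a13 (4.31), Sipa1l2 (4.28) and Cnksr2 (4.07). The lowest had another filter, at least 200 UMIs expected in the Crh nuclei from the level of the other nuclei. Among the 10 lowest were Lingo2 (529 against 3073 CPM, 0.172, 0.157 to 0.189), Npas3 (0.182), Brinp3 (0.210), the splicing factor gene Rbfox1 (0.222) and the teneurin gene Tenm2 (0.236). Of the 10, 9 were lower still in the Crh-undetected neighbours, with Lingo2 at 217 CPM and Tenm2 at 293 against 981 CPM in the Crh nuclei. The exception was Kirrel3, at 172 CPM in the neighbours against 143. Levels for the Crh nuclei here cover all 178, while the neighbours all lie in the shared cluster. The part of the 27 Crh nuclei outside the cluster in these gaps was not tested.

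Set beside the other peptide neurons of the PVH, Crh nuclei differed most from the magnocellular types. Agtr1a stood at 349 CPM (310.4 to 391) in Crh nuclei, 57.4 in Trh nuclei, 10.8 in Oxt nuclei and 2.45 in Avp nuclei, and each step exceeded the counting interval except that between Oxt and Avp nuclei. Nr4a1 followed the same order at 181, 22.0, 12.1 and 4.89 CPM, with the intervals of neighbouring groups among the last 3 overlapping. Nr3c1 stood at 183 CPM in Crh nuclei and 143 in Trh nuclei, a ratio of 1.28, and at 28.2 and 18.3 in Oxt and Avp nuclei. Scg2 stood at 681, 299, 41.7 and 51.4 CPM in the same order. Pcsk1 was less apart, at 2.07 times the level of Oxt nuclei, 2.82 times that of Trh nuclei and 3.72 times that of Avp nuclei. Pou3f2, a POU factor of neuroendocrine neurons, went the other way, with 50.3 CPM in Crh nuclei against 229 in Avp and 194 in Oxt nuclei. Avp itself made up 14157 CPM of the Avp nuclei and Oxt 10781 CPM of the Oxt nuclei. The groups were defined by peptide UMIs and are not the study's own cell types.

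**Figure D4:**
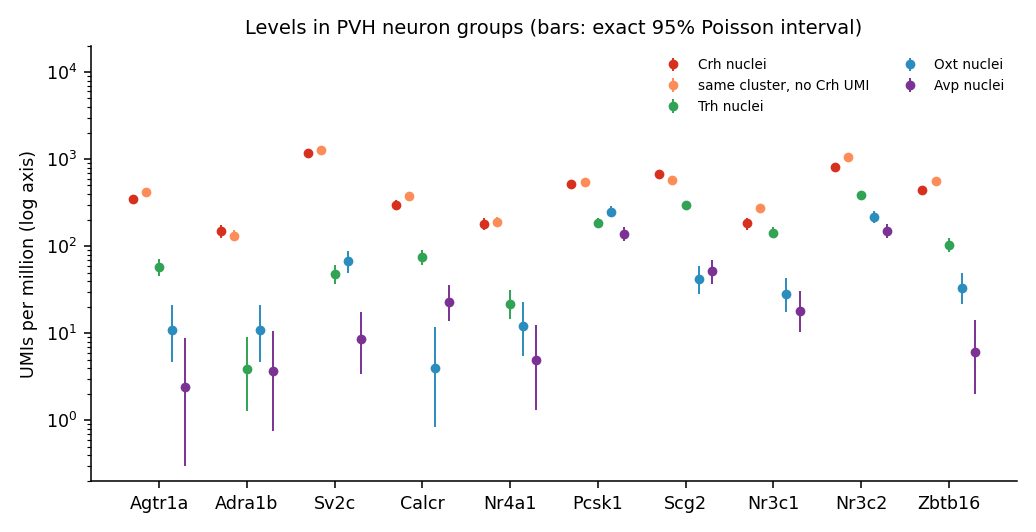
Level of 10 genes (x axis) in 5 groups of nuclei, in CPM on a log axis with exact 95% Poisson intervals. Crh nuclei and their Crh-undetected neighbours lie close together for each gene, and Avp nuclei lie lowest or near lowest, as for Agtr1a at 2.45 against 349.

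Among the Crh nuclei, levels were set out by Crh class: 2 UMIs (86 nuclei), 3 to 4 (60 nuclei) and 5 or more (32 nuclei). Crh stood at 399.7, 765 and 1354 CPM in these classes by construction. Adra1b stood at 92.9, 183 and 237 CPM and Agtr1a at 279, 377 and 494 CPM, with the intervals of the first and last class apart for both. Other markers did not follow that order, with Hs3st2 at 274, 157 and 655 CPM and Sv2c at 1057, 1339 and 1264 CPM. Pcsk1 stood at 458, 519 and 687 CPM. Nr4a1 stood at 174, 179 and 205 CPM, with overlapping intervals, while Sim1 stood at 448, 444 and 237 CPM and Nr3c1 at 211, 168 and 128 CPM. The share of nuclei in the shared cluster differed too, with 68 of 86, 53 of 60 and 30 of 32, and its part in these values was not tested. Across 169 nuclei at 2000 UMIs, rank correlations of 760 genes with Crh ran from -0.32 to 0.35, with Chic1 and the kinase gene Fyn at the top. Crh at fixed depth correlated at -0.47 with the nucleus's full UMI count. The rule set its minimum on raw UMIs, which admits deep nuclei with less Crh per UMI. The 27 Crh nuclei outside the shared cluster were deeper and carried Crh at 348 CPM against 799 in the 151 inside. The part of each in this correlation, and in those of the 760 genes, was not tested.

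By pool, Crh nuclei were 74 of 1966 one-tag nuclei in Ctrl (3.76%, 2.97 to 4.70), 45 of 1347 in KD (3.34%, 2.45 to 4.44) and 59 of 1591 in Q153R (3.71%, 2.83 to 4.76). The 3 shares were within each other's intervals. At 2000 UMIs per nucleus they were 1.89%, 1.67% and 2.12%. Crh stood at 681 CPM in Ctrl, 604 in KD and 779.6 in Q153R, which gave 0.887 (0.718 to 1.09) for KD over Ctrl and 1.14 (0.943 to 1.39) for Q153R over Ctrl. These values are bound by the rule of at least 2 UMIs. Over all 740 nuclei of the shared cluster, which the rule did not select by Crh, the ratios were 0.808 (0.672 to 0.969) and 0.856 (0.720 to 1.02). The share of the cluster among one-tag nuclei was 13.5% in Ctrl (266 of 1966), 14.1% (12.3 to 16.1) in KD and 17.9% in Q153R (284 of 1591). The interval of the Q153R share overlapped that of KD and lay wholly above the upper bound of 15.1% for Ctrl.

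Otp, the gene altered in the study, was low in Crh nuclei. It was at 43.8 CPM in Ctrl (16 UMIs in 10 of 74 nuclei), 45.8 in KD (11 UMIs in 9 of 45) and 129 in Q153R (32 UMIs in 22 of 59). The ratio to Ctrl was 1.05 (0.439 to 2.40) in KD and 2.94 (1.56 to 5.73) in Q153R. In the Crh-undetected neighbours Otp stood at 12.2, 48.2 and 104 CPM, so the KD pool lay above Ctrl there and the Q153R pool was higher than Ctrl in both sets. One Ctrl nucleus held 37.5% of the Ctrl Otp UMIs of the Crh nuclei. In Xist nuclei alone the Q153R ratio was 2.23 (1.02 to 4.93). Whether introns were counted is not given in these sources, and no count separates the alleles. Wdr41, which lies downstream of Otp on chromosome 13 (Otp at chr13:94875602-94885130 and Wdr41 at chr13:94976344-95023314, both on the plus strand of GRCm38), stood at 60.2, 200.1 and 56.3 CPM in Ctrl, KD and Q153R. It overlaps Gm48350 on the other strand. Its KD ratio was 3.32 (1.97 to 5.78) in all Crh nuclei, 1.76 (0.850 to 3.61) in those of the shared cluster and 3.47 in the neighbours. Otp and Wdr41 fell under the filter of 100 UMIs that the counts by pool required, and a single nucleus held up to 21.4% of a pool's Wdr41 UMIs.

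Few other genes were 2-fold apart between pools. A gene entered when it had at least 100 UMIs over the 2 pools in at least 20 nuclei, with no nucleus above 10% of a pool's UMIs. KD over Ctrl, 363 genes entered, of which 0 (0%) were at least 2-fold higher and 1 (0.275%) at least 2-fold lower. Q153R over Ctrl, 575 entered, of which 1 (0.174%) was higher and 2 (0.348%) lower. Both comparisons use the same 74 Ctrl nuclei. The gene lower in KD was the transporter gene Slc22a15 (87.5 against 219 CPM, 0.400, 0.235 to 0.653). The genes lower in Q153R were 4932438A13Rik (346 against 805 CPM, 0.430, 0.334 to 0.548) and the phosphatase gene Ppm1e (121 against 249 CPM, 0.484, 0.309 to 0.739). The gene higher in Q153R was Nisch, which encodes nischarin (273 against 126 CPM, 2.17, 1.47 to 3.23). In the neighbours the same ratios were 0.662, 0.862, 0.814 and 1.28, on the same side of 1 and closer to it. No list gene that entered was past 2-fold in either comparison, but many list genes did not enter. Of 84 receptor genes 1 entered for KD and 2 for Q153R, and of 30 activity genes 3 and 6. Of 63 PVH transcription factors 3 and 8 entered. With the genes of the rule set aside, 0 of 7 CRH family genes and 0 of 36 other peptide genes entered. Some genes that did not enter were past 2-fold, as Otp was in Q153R (2.94) and Calcr in KD (0.498). Of the 8 lowest ratios in KD, which ran from 0.400 for Slc22a15 to 0.614 for the phosphatase gene Ssh2, 8 lay under 1 in the neighbours too, with median log2 ratios of -0.89 and -0.29. The 8 highest ran from 1.59, for the kinase gene Pi4ka, to 1.83, and 6 lay above 1 in the neighbours, with medians of 0.73 and 0.08. In Q153R 7 of the 8 lowest and 8 of the 8 highest lay on the same side in the neighbours, with medians of -0.96 and -0.19 and of 0.83 and 0.37. Each set of 8 was picked for its ratios in the Crh nuclei, so smaller values in the neighbours are no finding.

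Genes of peptide processing lay mostly below Ctrl in both other pools, which share the Ctrl nuclei. Of 33, 11 entered for KD over Ctrl, 2 were above 1 and the median log2 ratio was -0.24, against -0.03 over all genes entered. For Q153R over Ctrl 17 entered, 4 were above 1 and the median was -0.14, against 0.01 over all. Pcsk1 stood at 629 CPM in Ctrl, 317 in KD and 551 in Q153R. Its KD ratio was 0.503 (0.383 to 0.655) in Crh nuclei, 0.473 in Xist nuclei alone and 0.782 (0.640 to 0.952) in the neighbours. Scg2 stood at 829, 571 and 571 CPM, with ratios of 0.689 (0.559 to 0.845) in KD and 0.688 (0.560 to 0.843) in Q153R. In the neighbours these were 0.617 and 0.814. Pam, in which 1 KD nucleus held 10.4% of the UMIs, stood at 3429, 2409 and 3733 CPM, and its KD ratio was 0.703 (0.636 to 0.776) in Crh nuclei and 0.704 in the neighbours. With every nucleus thinned to 2000 UMIs, KD being the deepest pool, the KD ratios in Crh nuclei were 0.600 (0.389 to 0.904) for Pcsk1, 0.769 (0.553 to 1.06) for Scg2 and 0.860 (0.733 to 1.01) for Pam, and the last 2 intervals include 1. Scg3 had a KD ratio of 0.534 (0.331 to 0.838) in Crh nuclei and 0.830 (0.581 to 1.18) in the neighbours. Vgf was lower in Q153R, at 133 against 260.0 CPM (0.510, 0.332 to 0.765), while the ratio in the neighbours was 0.997. So the KD ratios of Pcsk1, Scg2, Pam and Scg3 lay under 1 in both sets, and the Q153R ratio of Vgf was near 1 in the neighbours. No difference between the sets was tested.

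**Figure D5:**
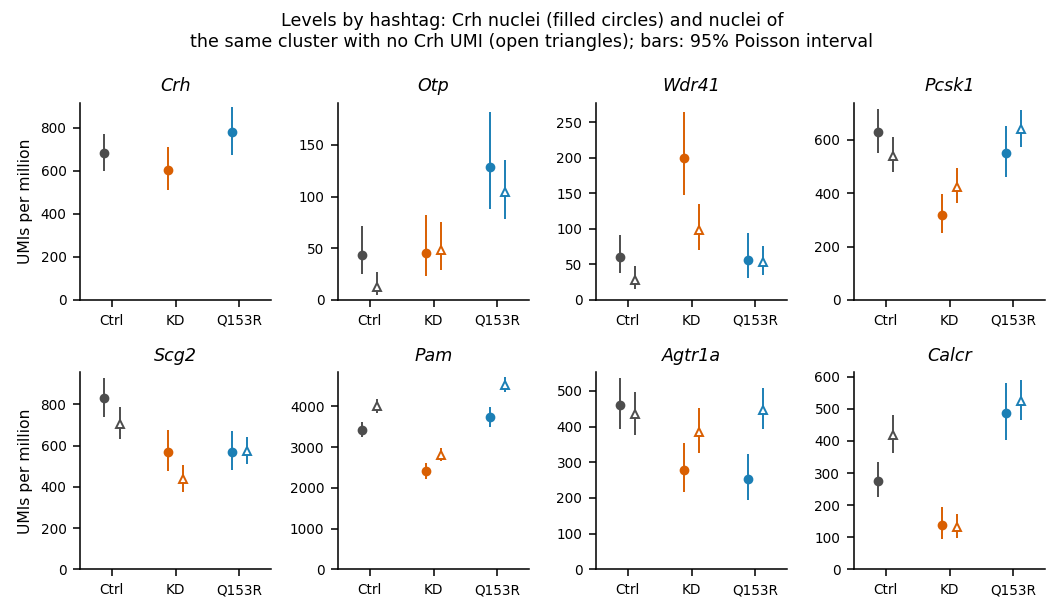
Levels of 8 genes in CPM (y axes from 0) by hashtag pool (x axes), in Crh nuclei (filled circles) and Crh-undetected neighbours of the same cluster (open triangles; not drawn for Crh), with exact 95% Poisson intervals. Otp is highest in Q153R (129 CPM in Crh nuclei), KD is highest for Wdr41 (200.1) and lowest for Pcsk1 (317) and Pam (2409), and Agtr1a in the neighbours lies between 385 and 447 in all 3 pools.

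Receptor genes by pool rested on fewer UMIs. Agtr1a stood at 459.7 CPM in Ctrl, 279 in KD and 253 in Q153R, with ratios of 0.607 (0.451 to 0.811) and 0.551 (0.405 to 0.740). At 2000 UMIs they were 0.661 (0.405 to 1.05) and 0.626 (0.401 to 0.959). In the neighbours the ratios were 0.889 and 1.03. Up to 17.5% of a pool's Agtr1a UMIs came from 1 nucleus. Calcr stood at 276, 138 and 486 CPM, with ratios of 0.498 (0.325 to 0.744) in KD and 1.76 (1.34 to 2.31) in Q153R. It stood at 419, 132 and 524 CPM in the neighbours. One nucleus held 27.3% of the KD UMIs of Calcr in the Crh nuclei, and at 2000 UMIs per nucleus the KD ratio there was 1.13 (0.623 to 2.02), on the other side of 1. Nr3c2 stood at 662, 842 and 1017 CPM. Its Q153R ratio of 1.54 (1.28 to 1.84) was 1.19 (1.05 to 1.35) in the neighbours and 0.956 (0.752 to 1.21) in Xist nuclei alone. Alk was lower in Q153R, at 832 against 1615 CPM (0.515, 0.438 to 0.605), with 0.474 (0.387 to 0.576) in Xist nuclei and 0.931 (0.807 to 1.07) in the neighbours. Of activity genes, Nr4a1 had ratios of 0.927 (0.616 to 1.38) in KD and 0.936 (0.627 to 1.39) in Q153R, and Npas4 had 0.762 (0.407 to 1.38) and 1.92 (1.22 to 3.05) on 18 and 47 UMIs. In Xist nuclei alone the Q153R ratio of Npas4 was 1.59 (0.922 to 2.73).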

How the data were processed

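The authors deposited raw UMI counts of 31053 genes and 3 hashtags. Per the submitters' processing notes they used Cell Ranger 6.0.0 and mm10, but per the file headers the matrix came from 7.0.0. Annotation, intron and strand settings were not given in these sources. Of 6157 barcodes with at least 500 genes, 1124 with more than 1 tag (18.3%) were removed as doublets and 129 had no tag. Doublets within a pool remain.

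Sums, ratios (conditional binomial), shares (Clopper-Pearson) and Poisson intervals were computed with scipy 1.17.1 and checked on simulated data. Clustering used 2000 variable genes, 30 components, 15 neighbours and Leiden at resolution 1 (leidenalg 0.10.2), and comparisons with cluster neighbours were added after the data were seen. Shares were repeated with each nucleus thinned to 2000 UMIs. Outside the lists, named genes were the 20 highest and 10 lowest ratios, and by pool the 8 at each end, of which some are printed. Lists, markers and Crh nuclei were chosen with earlier results of these data known. Gene coordinates are from the GENCODE annotation and promoter windows from RefSeq, both GRCm38. Some named genes are not reported here.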

Additional observations from a re-analysis of the deposited data

How the results depend on the processing

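The labels name no replicate pools. No paired analysis was possible because each hashtag marked 1 pool. Shares by pool fell with a minimum of 3 Crh UMIs to 2.03%, 1.63% and 1.89% in Ctrl, KD and Q153R, and at 2000 UMIs per nucleus to 1.89%, 1.67% and 2.12%, as both settings admit fewer nuclei. Of genes against other nuclei, 2184 were at least 2-fold lower with only the Crh nuclei of the shared cluster, against 1328. At clustering resolution 2, 75.8% of Crh nuclei shared a cluster, against 84.8%. The number of genes at least 2-fold apart in KD and in Q153R was 1 and 3. It was 0 and 0 with a minimum of 3 Crh UMIs, where only 8 and 69 genes entered, and 3 and 7 as a mean over nuclei. In KD it was 2 in Xist nuclei and 0 without nuclei over the 90th percentile of UMIs. Named genes turned direction in 2 cases, Nr3c2 in Q153R to 0.956 in Xist nuclei and Calcr in KD to 1.13 at 2000 UMIs, and the cause was not tested. Of 196 values of named genes by pool under alternatives, 179 stayed in the interval of the reported value, as did 86 of 138 against other nuclei, with no turn among the latter. With 45 to 74 Crh nuclei a pool, genes under 100 UMIs were limited by single nuclei.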

Other observations

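The 23 nuclei that had at least 2 Crh UMIs and were left out for GABA genes resembled the Crh nuclei in their markers. Of them 19 lay in the cluster that held most Crh nuclei. They carried Crh at 545 CPM (431 to 679.7), Sv2c at 936 (784 to 1108), Hs3st2 at 279 and Agtr1a at 230.4 CPM (159 to 324), against 688, 1184, 307 and 349 CPM in the Crh nuclei. Their GABA gene was Gad2, an enzyme of GABA synthesis, at 538 CPM (424 to 672) in 21 of 23 nuclei. Gad1 stood at 48.9 CPM in 3 nuclei and the vesicular transporter gene Slc32a1 at 14.0 CPM on 2 UMIs. The GABAergic factor genes Dlx1 and Dlx6os1 were at 0. The nuclei were chosen by these GABA genes, so their levels are a description.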
